A study of Homo sapiens with 12 samples.

Results

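This account concerns albumin, alpha-fetoprotein and 6 further genes used to tell fetal or tumour liver from adult liver. The 8 genes were chosen by name, as ALB, AFP, TTR, GPC3, DLK1, PEG10, H19 and EPCAM, and each was read from the probe set that the array's annotation gives to that gene alone, taking the one with the highest mean where a gene had more. This gave 7 genes with values out of the 18404 genes that had such a probe set, and all 7 were among the 13199 genes tested. H19 had no value, because the probe set that names it also names RPS12. RNA came from HepG2C3A, a clonal human line derived from the liver tumour line HepG2 and kept for its hepatocyte-like secretion of plasma proteins. The microarray groups were microsystem cells treated with acetaminophen, microsystem control cells without drug, Petri cells treated with acetaminophen and Petri control cells without drug, with 3 arrays in each. All cells were cultured for 96 h, and the treated ones had acetaminophen for 72 h of it, at a dose that the labels do not state. The microsystem is described in the labels only by that name.

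In the embryo, hepatoblasts make both albumin and alpha-fetoprotein. After birth the AFP gene is silenced while ALB stays among the most strongly expressed genes of the hepatocyte, and AFP returns in regenerating liver and in many liver tumours. GPC3, DLK1, PEG10, H19 and EPCAM are likewise high in fetal liver, in hepatoblastoma or in progenitor cells and low in adult hepatocytes, which is why they are called oncofetal. ALB and AFP are neighbours on chromosome 4 and arose by duplication of an ancestral gene, and AFM follows AFP in the same cluster.

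Promoter sequences were matched in RefSeq (build GRCh38.p14) for ALB, AFP and H19, and those of ALB and AFP are shown because both genes were measured and both were higher in the microsystem. Each run holds the 250 bases before the RefSeq start on the plus strand, at chr4:73404037-73404286 for ALB and chr4:73435971-73436220 for AFP. Capitals mark TTGGCA, a half-site of the nuclear factor I family, searched on the plus and minus strand, and the marked matches do not overlap.
ALB promoter: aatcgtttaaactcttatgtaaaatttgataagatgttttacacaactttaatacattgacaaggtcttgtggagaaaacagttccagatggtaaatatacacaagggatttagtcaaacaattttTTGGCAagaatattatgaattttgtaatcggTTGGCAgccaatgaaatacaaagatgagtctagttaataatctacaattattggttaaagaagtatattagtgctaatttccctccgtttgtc
AFP promoter: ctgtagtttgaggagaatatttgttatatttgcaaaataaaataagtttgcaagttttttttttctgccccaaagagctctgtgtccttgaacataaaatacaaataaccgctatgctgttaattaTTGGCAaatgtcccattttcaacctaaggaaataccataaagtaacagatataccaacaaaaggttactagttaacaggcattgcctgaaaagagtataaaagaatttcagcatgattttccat
The ALB window held 2 matches to TTGGCA, whose first bases lie 124 and 93 bases before the start. The AFP window held 1 match, 124 bases before the start. Of 35116 promoter windows of the same length, 10.8% held TTGGCA on either strand. These matches describe the letters and are not shown to be bound in these cells.

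Values are the authors' log2 intensities per probe set, so a difference of 1 is a doubling, and levels of different probe sets are not compared. The array medians lay between 5.556 and 5.629. A linear model (limma) was fitted to all 12 arrays with Benjamini-Hochberg adjustment across the 13199 genes, and a gene is said to have risen or fallen where the adjusted p was under 0.05. Whether replicates are separate cultures is not stated in the labels, so the p-values speak for the spread among these arrays alone, part of which may be technical, and 3 arrays per group limit the precision. Both microsystem arrays numbered 3 stood apart from the others on the third principal component, with scores of -13.9 and -17.2, so a member's result is also given without them where that changes its call. Of the hepatocyte markers, 6 of 6 with a value (ALB, APOA1, APOB, TF, SERPINA1 and FGB) were above the 40th percentile of the probe sets on all 12 arrays. PECAM1, VWF and KDR (endothelium), PTPRC and CD3E (leukocytes), LUM and DCN (fibroblasts) and CFTR and AQP1 (bile duct) were below it on all 12. The fibroblast markers COL1A1, COL3A1 and PDGFRB, at median percentiles of 57.4, 45.2 and 55.9, and the bile duct marker KRT7, at 44.7, were above it on all 12. The leukocyte markers CD68 and CD14, at median percentiles of 86.4 and 50.9, were also above it on all 12. So were the bile duct markers KRT19 and SOX9, at 86.9 and 86.5. These 4 were lower in the microsystem. Of the hepatocyte markers, ALB rose there, while TF fell by 0.35 ± 0.09 in control and 0.25 ± 0.09 in treated cells (adjusted p = 0.0061 and 0.0368, limma). FGB fell by 0.464 ± 0.165 in control cells (adjusted p = 0.0348), and APOA1, APOB and SERPINA1 passed in neither. The endothelial marker CDH5 was above the 40th percentile on 1 array. The mean log2 value of the 4 leukocyte markers lay between 4.85 and 5.02 in treated and between 4.96 and 5.04 in control microsystem cells, against 5.33 to 5.42 in treated and 5.33 to 5.48 in control Petri cells. That of the 5 bile duct markers lay between 5.81 and 5.94 in treated and 5.87 and 5.91 in control microsystem cells, against 6.12 to 6.23 in treated and 6.02 to 6.17 in control Petri cells. The part of these shifts in the results below was not tested. In such bulk RNA, fewer cells that make a transcript and less transcript per cell cannot be told apart.

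Culture moved 5 of the 7 genes, in both directions. Averaged over drug treatment, ALB and AFP rose in the microsystem while DLK1, PEG10 and GPC3 fell, and TTR and EPCAM did not pass the test. In the same comparison 57.0% of all genes tested were called, 31.6% higher and 25.4% lower, so the share of members called is near the background. In control cells 2 of the 7 rose and 2 fell, where 44.9% of all genes were called, and in treated cells 1 rose and 3 fell, where 41.4% were called. Acetaminophen changed none of the 7 past the threshold in either culture, where limma called 9.06% of all genes in the microsystem and 10.4% in Petri dishes. At an unadjusted p under 0.05, TTR and DLK1 would pass in the microsystem and no member in Petri dishes. The share of all genes at that looser threshold was not counted, so no result is read from it. Averaged over cultures the drug called none of the 7 either, where 23.3% of all genes were called, 15.0% higher and 8.31% lower. That averaged result depended on the setting. TTR (0.36 ± 0.13, adjusted p = 0.0617) passed in 9 of 23 alternatives, DLK1 (0.27 ± 0.10, adjusted p = 0.061) in 6, EPCAM in 2 and GPC3 in 1. Without both microsystem arrays numbered 3, TTR was at 0.36 (adjusted p = 0.0439) and DLK1 at 0.30 (adjusted p = 0.0144). Among the fetal genes, AFP was thus higher in the microsystem and 3 others were lower. Separation without overlap was common among all genes by culture, at 52.4% in control cells (29.5% higher, 22.9% lower) and 52.9% in treated cells (28.1% higher, 24.8% lower). For the drug it was 27.6% in the microsystem (15.2% higher, 12.4% lower) and 34.5% in Petri dishes (21.0% higher, 13.5% lower). ALB, DLK1 and PEG10 also separated by culture over both treatments together. The share of all genes that did so was not counted.

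**Figure D1:**
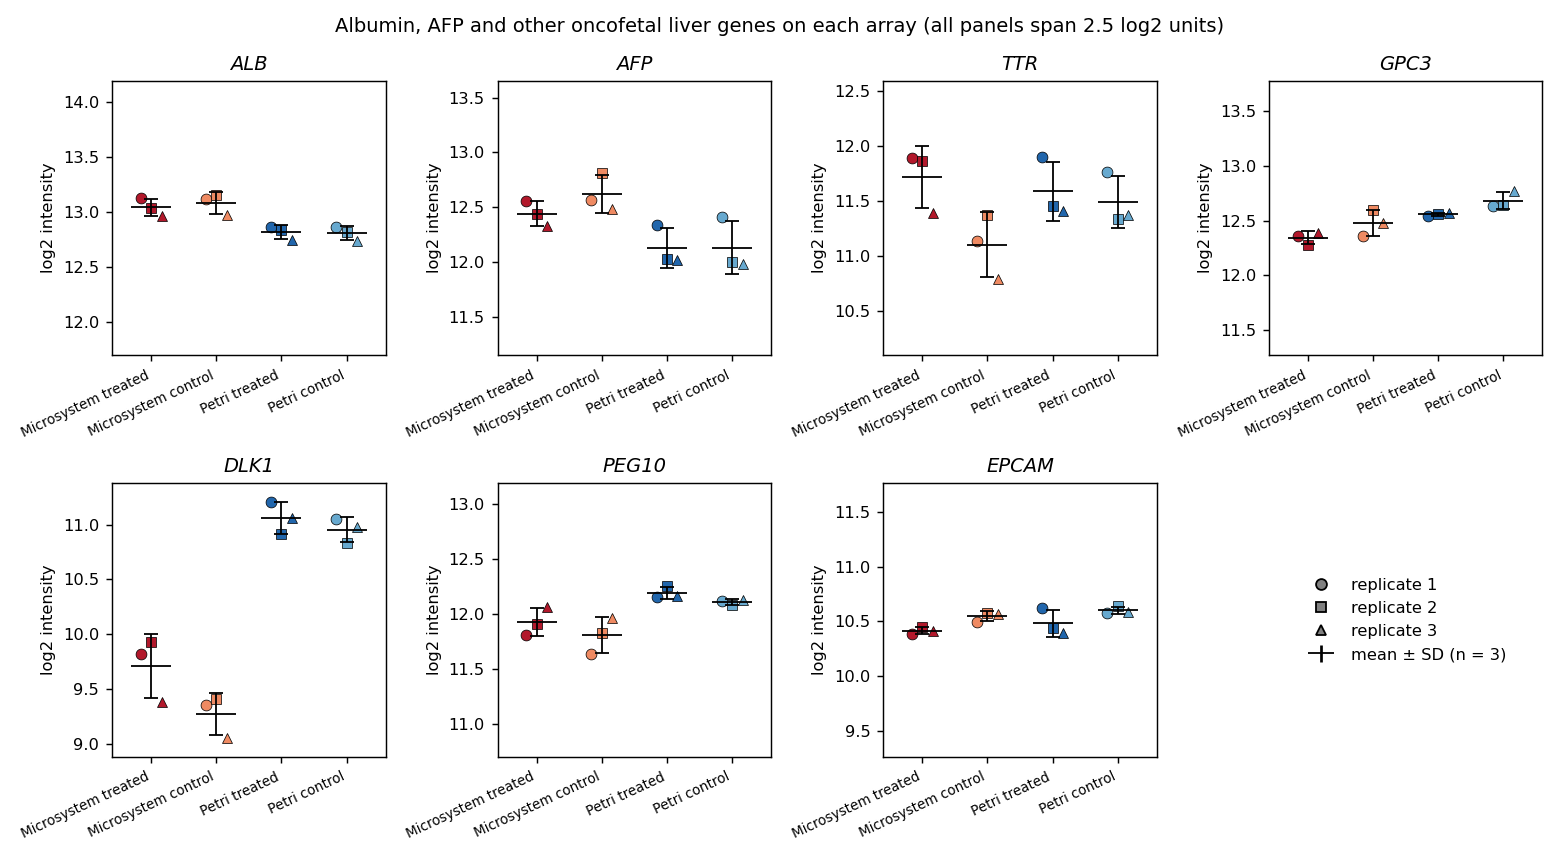
Log2 intensity (vertical axis) of the 7 measured genes on each of the 12 arrays, with groups along the horizontal axis, a symbol for each replicate number and bars for the mean ± SD of 3 arrays; every panel spans the same number of log2 units. DLK1 shows the widest separation of microsystem from Petri arrays, ALB a small one without overlap, and EPCAM almost none.

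Albumin is the main protein of blood plasma, a carrier of fatty acids, hormones and drugs. ALB (probe set 8095628) stood at 13.12, 13.04 and 12.97 in microsystem treated cells and 13.12, 13.15 and 12.97 in microsystem control cells, against 12.87, 12.83 and 12.74 in Petri treated cells and 12.86, 12.82 and 12.73 in Petri control cells. Every microsystem array lay above every Petri array, while treated and control arrays of a culture overlapped. In control cells ALB rose in the microsystem by 0.28 ± 0.08 (SE), or 1.21-fold, at an adjusted p of 0.0129 (limma), and in treated cells by 0.23 ± 0.08, or 1.17-fold, at an adjusted p of 0.0358. The first call was lost without microsystem control 2 (adjusted p = 0.0528) or Petri control 3 (adjusted p = 0.0534), and the second without microsystem treated 1 or 2 or Petri treated 2 or 3 (adjusted p = 0.0715 to 0.129), after quantile normalization (adjusted p = 0.078) or with the compared arrays alone (adjusted p = 0.0501). Averaged over treatment, ALB rose by 0.25 ± 0.06 (adjusted p = 0.00184), a call that held under all 22 alternatives (0.23 to 0.30). An exact two-sided permutation of culture labels within treatment gave p = 0.005, the smallest that its 400 arrangements allow, in a family of 14 such tests. ALB ranked between 23rd and 84th from the top among 32321 probe sets on every array, where the deposited values end at about 14.014. How far this compresses its differences was not tested.

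Alpha-fetoprotein is the fetal counterpart of albumin in plasma and a serum marker of liver cancer. AFP (probe set 8095646) stood at 12.56, 12.44 and 12.33 in microsystem treated cells and 12.57, 12.81 and 12.48 in microsystem control cells, against 12.34, 12.03 and 12.02 in Petri treated cells and 12.41, 12.00 and 11.99 in Petri control cells. The microsystem control arrays lay above the Petri control arrays, with Petri control 1 well above its group, and the treated groups of the 2 cultures overlapped slightly. AFP rose in the microsystem by 0.49 ± 0.13, or 1.40-fold, in control cells (adjusted p = 0.00815), and this call held under all 23 alternatives. In treated cells the difference was 0.31 ± 0.13 (adjusted p = 0.0731), which passed in 5 of 23 alternatives, among them those without Petri treated 1 (0.42, adjusted p = 0.0306) and without Petri control 1 (adjusted p = 0.0392). Averaged over treatment AFP rose by 0.40 ± 0.09 (adjusted p = 0.00222, exact permutation p = 0.01). Within an array, the log2 value of ALB exceeded that of AFP by 0.60 ± 0.04 in microsystem treated and 0.46 ± 0.11 in microsystem control cells, against 0.69 ± 0.14 in Petri treated and 0.67 ± 0.20 in Petri control cells (SD, n = 3 each). The gap ranged from 0.34 to 0.64 in the microsystem and from 0.45 to 0.82 in Petri dishes, so the cultures overlapped in it. Its absolute size has no meaning across probe sets. AFM, the next gene of the cluster, was under the filter on dim probe sets.

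Transthyretin, made by hepatocytes from fetal life on, carries thyroid hormone and, with the RBP4 product, retinol. TTR (probe set 8020795) stood at 11.89, 11.86 and 11.39 in microsystem treated cells, against 11.14, 11.38 and 10.79 in microsystem control cells. Each treated array lay above all control arrays, treated 3 only just above control 2. In Petri dishes the values were 11.90, 11.46 and 11.41 in treated cells, against 11.76, 11.34 and 11.37 in control cells, and the groups overlapped. The drug difference in the microsystem was 0.62 ± 0.18, or 1.53-fold, the largest drug difference among the 7 genes in either culture, but its adjusted p was 0.053. It passed in 10 of 24 alternatives, including those without microsystem treated 3 (0.78, adjusted p = 0.0282), Petri treated 1 (adjusted p = 0.0418) or Petri control 1 (adjusted p = 0.0463), and ranged from 0.46 to 0.78. In Petri dishes the drug difference was 0.10 ± 0.18 (95% interval -0.30 to 0.50), and the difference between the 2 drug effects was 0.52 ± 0.26 (adjusted p = 0.704), so the cultures are not shown to differ. By culture, TTR was at -0.39 ± 0.18 in control cells (adjusted p = 0.101) and 0.13 ± 0.18 in treated cells (adjusted p = 0.619). Unlike ALB, it had its lowest values in microsystem control cells.

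**Figure D2:**
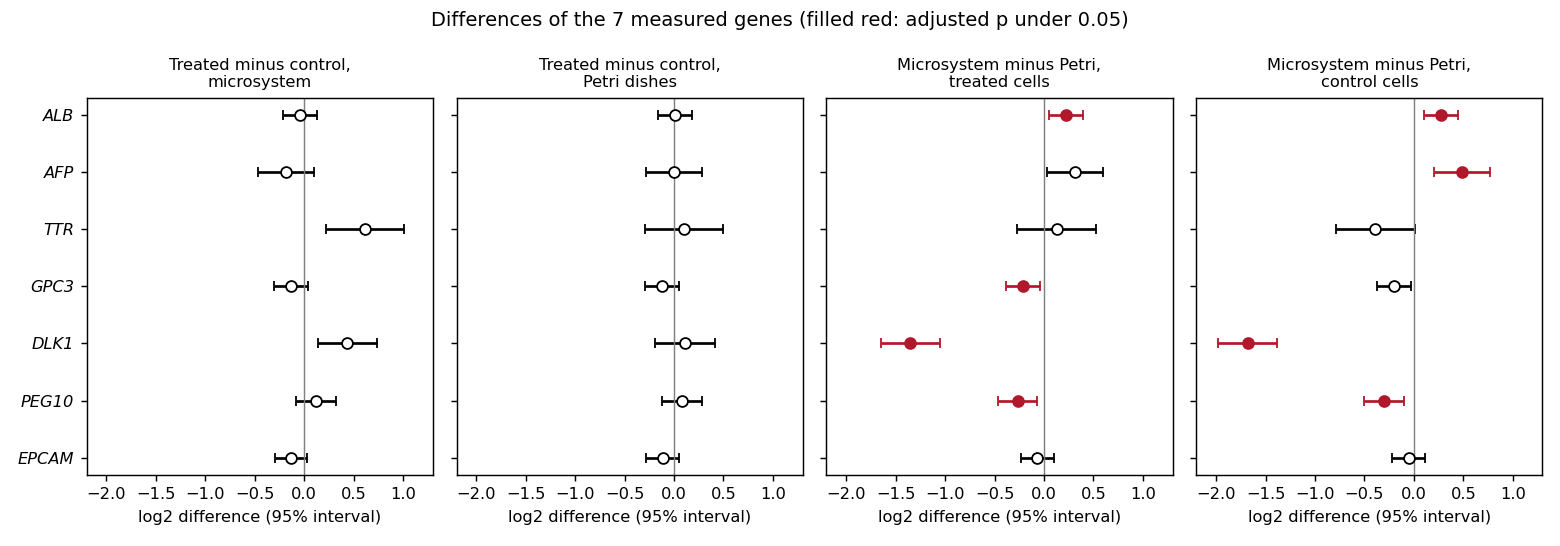
Log2 differences (horizontal axis) of the 7 genes (vertical axis) in the 4 comparisons, as points with 95% intervals of the fit; filled red points passed at an adjusted p under 0.05. Filled points appear in both culture panels and in neither drug panel, and the DLK1 points at -1.35 and -1.68 lie farthest from 0.

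Delta-like 1 homologue is a membrane protein related to Notch ligands, a surface marker of hepatoblasts, and the product of a gene read from the paternal chromosome. DLK1 (probe set 7976783) stood at 9.82, 9.93 and 9.38 in microsystem treated cells and 9.35, 9.41 and 9.05 in microsystem control cells, against 11.21, 10.91 and 11.06 in Petri treated cells and 11.05, 10.83 and 10.98 in Petri control cells. All microsystem arrays lay far below all Petri arrays. In control cells DLK1 fell by 1.68 ± 0.14, a 3.21-fold decrease (adjusted p = 1.33e-06), which ranked 107th by size among the 13199 genes. In treated cells it fell by 1.35 ± 0.14, a 2.55-fold decrease (adjusted p = 7.91e-06). Both calls held under all 23 alternatives of each, from -1.75 to -1.57 in control and from -1.46 to -1.19 in treated cells. The drug difference in the microsystem was 0.44 ± 0.14 (adjusted p = 0.0671), and the lowest treated array, number 3, lay among the control arrays. Without both microsystem arrays numbered 3 it was 0.50 ± 0.11 and passed (adjusted p = 0.0301), as it did without microsystem treated 3 alone (0.60, adjusted p = 0.015). In Petri dishes it was 0.11 ± 0.14 (adjusted p = 0.662), and the 2 drug effects differed by 0.33 ± 0.20 (adjusted p = 0.774). Arrays numbered 3 were the lowest of their group for DLK1, TTR, ALB and AFP in both microsystem groups.

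PEG10 is another imprinted, paternally read gene. It descends from a retrotransposon, still makes a capsid-like protein, and is raised in many liver tumours. PEG10 (probe set 8134339) stood at 11.80, 11.91 and 12.07 in microsystem treated cells and 11.64, 11.83 and 11.96 in microsystem control cells, against 12.16, 12.26 and 12.17 in Petri treated cells and 12.12, 12.08 and 12.13 in Petri control cells. The cultures did not overlap, though the highest microsystem array came close to the lowest Petri array. PEG10 fell by 0.30 ± 0.09, or 1.23-fold, in control cells (adjusted p = 0.0178) and by 0.27 ± 0.09, or 1.20-fold, in treated cells (adjusted p = 0.0346). The first call was lost without microsystem control 1 (adjusted p = 0.0793) or Petri control 3 (adjusted p = 0.0508), and the second without microsystem treated 1 or 2 or Petri treated 1, 2 or 3 (adjusted p = 0.0536 to 0.135). Averaged over treatment it fell by 0.28 ± 0.07 (adjusted p = 0.00225, exact permutation p = 0.005). SGCE, its neighbour on chromosome 7 and the sarcoglycan epsilon gene, fell in the microsystem by 0.51 ± 0.10 in control cells (adjusted p = 0.00088) and by 0.56 ± 0.10 in treated cells (adjusted p = 0.000507). Its level was 7.66 ± 0.13 in microsystem treated and 7.75 ± 0.12 in microsystem control cells, against 8.22 ± 0.05 in Petri treated and 8.26 ± 0.14 in Petri control cells (SD, n = 3 each).

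Glypican-3 is a heparan sulfate proteoglycan held at the cell surface by a lipid anchor, and a stain for liver cancer. GPC3 (probe set 8175234) stood at 12.36, 12.28 and 12.39 in microsystem treated cells and 12.36, 12.60 and 12.48 in microsystem control cells, against 12.54, 12.56 and 12.57 in Petri treated cells and 12.63, 12.64 and 12.77 in Petri control cells. Microsystem arrays were lower than Petri arrays of the same treatment without overlap, although microsystem control 2 exceeded the Petri treated arrays. GPC3 fell by 0.21 ± 0.08, or 1.16-fold, in treated cells (adjusted p = 0.0459), a call lost in 12 of 23 alternatives. These were the fits without 1 of 9 arrays (adjusted p up to 0.148), without both microsystem arrays numbered 3 (0.0595), with equal array medians (0.0526) and with no filter (0.0609). In control cells the difference was -0.20 ± 0.08 (adjusted p = 0.0566), which passed in 4 of 23 alternatives, among them that without microsystem control 2 (-0.26, adjusted p = 0.0289). Averaged over treatment it fell by 0.21 ± 0.06 (adjusted p = 0.00655, exact permutation p = 0.005). The drug differences were -0.14 ± 0.08 in the microsystem and -0.12 ± 0.08 in Petri dishes (adjusted p = 0.296 and 0.354). In Petri dishes all treated arrays lay below all control arrays for GPC3 and above them for PEG10, where 34.5% of all genes separated. In the microsystem treated arrays lay below control arrays for EPCAM and above them for TTR, where 27.6% of all genes separated.

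EPCAM encodes an epithelial adhesion molecule of hepatic progenitor and bile duct cells. Its brighter probe set (8098439) stood at 10.39, 10.45 and 10.415 in microsystem treated cells and 10.498, 10.58 and 10.57 in microsystem control cells, against 10.63, 10.44 and 10.39 in Petri treated cells and 10.58, 10.64 and 10.59 in Petri control cells. The whole range over the 12 arrays was 0.25, the smallest of the 7 genes. By culture it differed by -0.05 ± 0.08 in control cells (95% interval -0.22 to 0.11) and -0.07 ± 0.08 in treated cells (95% interval -0.24 to 0.10). A second probe set (8041853) gave -0.12 ± 0.08 and -0.11 ± 0.08 for the same comparisons (adjusted p = 0.226 and 0.276). Under the drug the brighter probe set differed by -0.13 ± 0.08 in the microsystem and -0.12 ± 0.08 in Petri dishes (adjusted p = 0.292 and 0.364). On the second probe set these were -0.053 ± 0.08 and -0.062 ± 0.08 (adjusted p = 0.704 and 0.652). Averaged over cultures it differed by -0.057 ± 0.055 (adjusted p = 0.465), and it was not permuted by itself. Averaged over cultures, an exact permutation of treatment labels gave p = 0.015 both for EPCAM (-0.12 ± 0.05) and for GPC3 (-0.13 ± 0.06), while the adjusted p over all genes was 0.111 for EPCAM and 0.109 for GPC3. The permutation p was 0.06 for both genes after quantile normalization, 0.065 for EPCAM and 0.095 for GPC3 with array medians set equal, and 0.05 for EPCAM without both microsystem arrays numbered 3.

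ALB and AFP did not move detectably with the drug. The 95% interval of the drug difference was -0.21 to 0.13 for ALB and -0.46 to 0.10 for AFP in the microsystem, and -0.16 to 0.18 for ALB and -0.29 to 0.28 for AFP in Petri dishes. PEG10 was at 0.12 ± 0.09 in the microsystem and 0.08 ± 0.09 in Petri dishes (adjusted p = 0.447 and 0.608). None of the 7 genes passed in the difference of drug effects, where limma called 0.0303% of all genes (0.00758% higher and 0.0227% lower), and none of the 7 had an unadjusted p under 0.05 there.

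Other genes of mature hepatocytes fell more often than they rose in the microsystem. Of 42 listed, 27 were tested, among them ALB and TTR. Of the other 25, in microsystem control cells 3 rose, 9 fell and 13 did not pass, with a median difference of -0.24 against 0.012 for all genes, of which 26.5% rose and 18.3% fell. In treated cells 3 rose, 11 fell and 11 did not pass, with a median of -0.25 against -0.001 for all genes, of which 22.6% rose and 18.9% fell. AHSG, the fetuin gene, fell by 1.08 ± 0.07 in control cells (adjusted p = 2.41e-07) and fell by 1.46 ± 0.07 in treated cells (adjusted p = 3.37e-08). PCK1, the gluconeogenic carboxykinase gene, fell by 1.14 ± 0.24 and APOC3, an apolipoprotein gene, by 0.99 ± 0.17 in treated cells (adjusted p = 0.00165 and 0.000434). CYP3A4, the main drug-oxidising cytochrome of adult liver, rose by 1.79 ± 0.19 in control and 1.94 ± 0.19 in treated cells (adjusted p = 7.35e-06 and 4.27e-06), although its mean was under the 40th percentile in 3 of the 4 groups and its near-identical relatives make it uncertain. Under the drug, 1 of the 25 rose and 7 fell in the microsystem, where 6.39% of all genes rose and 2.67% fell. Leaving out both arrays numbered 3 left 3 falls, in a fit that also called fewer of all genes there. In Petri dishes 0 of the 25 rose and 2 fell, where 8.38% of all genes rose and 1.98% fell. HP, the haptoglobin gene, fell by 1.301 ± 0.34 in the microsystem (adjusted p = 0.0323), but not without both arrays numbered 3 (adjusted p = 0.146) or with 1 of 5 arrays left out (up to 0.118). APOH, a phospholipid-binding plasma protein gene, fell by 0.71 ± 0.13 in the microsystem (adjusted p = 0.00494) and by 0.49 ± 0.13 in Petri dishes (adjusted p = 0.0266, but up to 0.111 when 1 of 4 arrays was left out).

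Of 14 further oncofetal genes with a value, 6 rose, 1 fell and 7 did not pass in microsystem control cells, and 6 rose, 2 fell and 6 did not pass in treated cells. Of all genes 44.9% passed in control and 41.4% in treated cells, so the share called in either direction is near the background. By direction, 26.5% of all genes rose and 18.3% fell in control cells, and 22.6% rose and 18.9% fell in treated cells. The 14 thus leaned more to rises than all genes did, which was not tested. Counting the members too, 7 of 19 rose and 3 fell in control cells, and 6 rose and 5 fell in treated cells. LIN28B, an RNA-binding protein of fetal cells that blocks maturation of let-7 miRNAs, rose by 1.73 ± 0.15 in control and 1.29 ± 0.15 in treated cells (adjusted p = 1.5e-06 and 1.71e-05). Its level was 7.72 ± 0.26 in microsystem treated and 8.20 ± 0.25 in microsystem control cells, against 6.43 ± 0.15 in Petri treated and 6.47 ± 0.16 in Petri control cells (SD, n = 3 each). NQO1, a quinone reductase gene raised in liver tumours, rose by 1.48 ± 0.12 in control and 1.51 ± 0.12 in treated cells (adjusted p = 1.01e-06 and 8.59e-07). The tetraspanin gene TSPAN8 rose by 1.43 ± 0.21 in control and 1.76 ± 0.21 in treated cells (adjusted p = 0.000105 and 2.23e-05). TSPAN8 was also the 1 gene of these 14 that the drug lowered within a culture. It fell by 0.90 ± 0.21 in the microsystem (adjusted p = 0.0183) and by 1.22 ± 0.21 in Petri dishes (adjusted p = 0.0024). The microsystem call was lost without microsystem treated 3 (adjusted p = 0.0607) or microsystem control 2 (adjusted p = 0.0662). Averaged over cultures, the drug lowered 3 of the 14 and raised 0, where 8.31% of all genes fell and 15.0% rose.

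**Figure D3:**
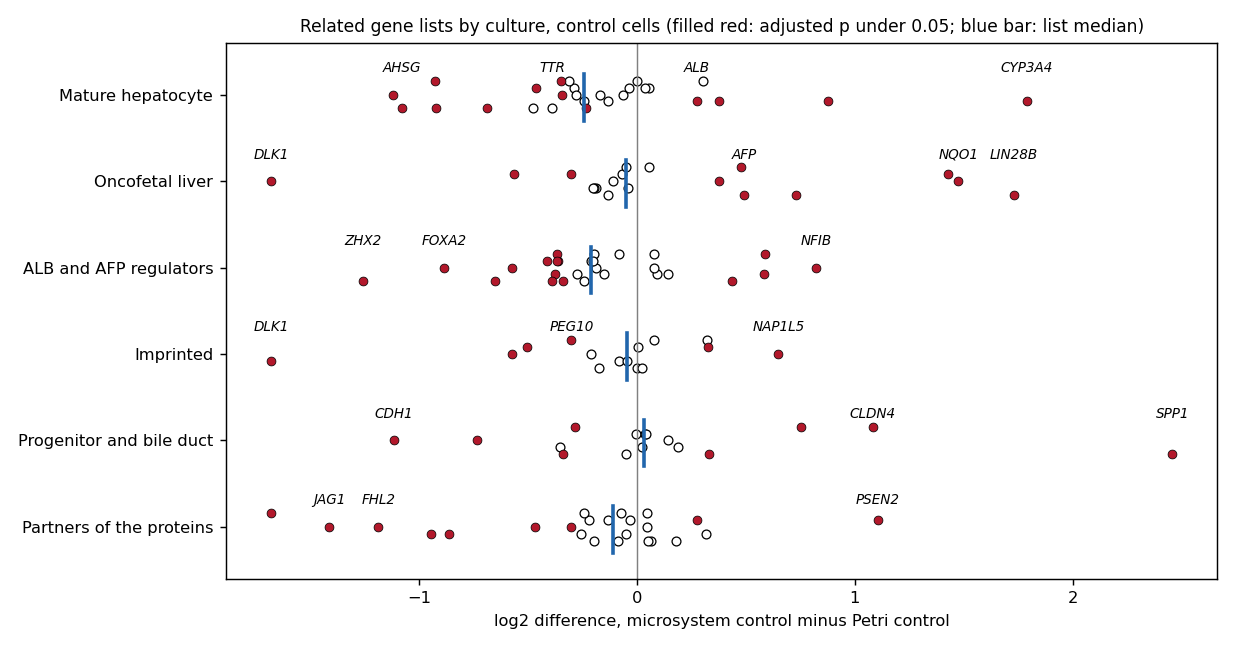
Log2 difference of microsystem control minus Petri control cells (horizontal axis) for the tested genes of 6 lists (vertical axis), filled red where the adjusted p was under 0.05, with a blue bar at each list median. The mature hepatocyte and regulator lists have medians of -0.24 and -0.21, and in the oncofetal list DLK1 lies far left while LIN28B and NQO1 lie far right.

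Factors that act on the ALB and AFP genes were measured for 27 of 36 listed. In microsystem control cells 4 rose, 11 fell and 12 did not pass (median -0.21), and in treated cells 4 rose, 8 fell and 15 did not pass (median -0.17), or 5 rose and 5 fell in treated cells without both arrays numbered 3. Of all genes 26.5% rose and 18.3% fell in control cells (median 0.012), and 22.6% rose and 18.9% fell in treated cells (median -0.001). The largest fall was that of ZHX2, a zinc finger and homeobox repressor that in mice is needed to silence Afp, H19 and Gpc3 after birth. Its level was 8.17 ± 0.07 in microsystem treated and 8.46 ± 0.13 in microsystem control cells, against 9.40 ± 0.09 in Petri treated and 9.72 ± 0.09 in Petri control cells (SD, n = 3 each). ZHX2 fell in the microsystem by 1.26 ± 0.09 in control and 1.23 ± 0.09 in treated cells (adjusted p = 3.43e-07 and 4.86e-07). Of the members, AFP was higher and GPC3 lower in the same arrays. FOXA2, a pioneer factor of liver enhancers, fell by 0.89 ± 0.13 in control and 0.93 ± 0.13 in treated cells (adjusted p = 8.07e-05 and 6.93e-05), and SMAD4 by 0.65 ± 0.10 and 0.61 ± 0.10 (adjusted p = 0.000116 and 0.000234). NFIB, of the nuclear factor I family, rose by 0.82 ± 0.20 in control and 1.03 ± 0.20 in treated cells (adjusted p = 0.00473 and 0.0011). Under the drug 1 of the 27 passed in each culture. SKIL, a brake on SMAD signalling, rose in the microsystem by 0.48 ± 0.12 (adjusted p = 0.027), but not without both arrays numbered 3 (adjusted p = 0.0902) or with 1 of 3 arrays left out (up to 0.11). ZHX2 fell in Petri dishes by 0.32 ± 0.09 (adjusted p = 0.0347), but not with 1 of 4 arrays left out (up to 0.141).

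Beside DLK1 and PEG10, 13 imprinted genes were tested, of which 2 rose, 2 fell and 9 did not pass in microsystem control cells and 1 rose, 3 fell and 9 did not pass in treated cells. The share of all genes called was 44.9% in control and 41.4% in treated cells. NAP1L5, a nucleosome assembly gene, rose by 0.65 ± 0.11 and 0.50 ± 0.11 (adjusted p = 0.000332 and 0.00234), while the growth factor adaptor gene GRB10 fell by 0.57 ± 0.18 in control cells (adjusted p = 0.0214), but not with 1 of 3 arrays left out (up to 0.109). MEG3, the maternally read long noncoding RNA of the DLK1 locus, named here after its value was seen, differed by 0.00 ± 0.09 in control cells (adjusted p = 0.999).

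Of 15 progenitor and bile duct genes other than EPCAM, 4 rose, 4 fell and 7 did not pass in microsystem control cells, and 4 rose, 5 fell and 6 did not pass in treated cells, beside 44.9% of all genes called in control and 41.4% in treated cells. SPP1, the osteopontin gene, had the largest rise, by 2.46 ± 0.20 in control and 2.90 ± 0.20 in treated cells (adjusted p = 1.31e-06 and 4.12e-07), and LGR5, a receptor that amplifies Wnt signals, rose by 0.75 ± 0.12 in control cells (adjusted p = 0.000288). The epithelial cadherin gene CDH1 fell by 1.12 ± 0.21 in control cells (adjusted p = 0.000787) and the keratin gene KRT19 by 0.77 ± 0.13 in treated cells (adjusted p = 0.000377).

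Genes whose proteins work with the members were listed as 29, of which 20 besides the members were tested. In the microsystem 2 rose, 5 fell and 13 did not pass in control cells, and 2 rose, 7 fell and 11 did not pass in treated cells. Among all genes 26.5% were higher and 18.3% lower in control cells, and 22.6% higher and 18.9% lower in treated cells. JAG1, a Notch ligand, fell by 1.42 ± 0.09 in control and 1.22 ± 0.09 in treated cells (adjusted p = 1.69e-07 and 4.94e-07), beside the fall of DLK1. FHL2, a coregulator with LIM domains, fell by 1.19 ± 0.09 and 1.53 ± 0.09 (adjusted p = 7.08e-07 and 1e-07). PSEN2, of the same list, went the other way and rose by 1.10 ± 0.11 in control and 1.15 ± 0.11 in treated cells (adjusted p = 7.04e-06 and 5.71e-06). The drug raised SULF2, which trims sulfate from the heparan sulfate chains that glypicans carry, by 1.11 ± 0.13 in the microsystem and 1.61 ± 0.13 in Petri dishes (adjusted p = 0.000355 and 1.13e-05). The receptor gene NOTCH1 rose under the drug by 1.04 ± 0.12 in Petri dishes (adjusted p = 0.000196) and was at 0.11 ± 0.12 in the microsystem, and this difference of drug effects was -0.93 ± 0.17 (adjusted p = 0.0776). In the drug comparisons 2 of the 20 rose and 0 fell in the microsystem, and 4 rose and 0 fell in Petri dishes. The drug raised 6.39% and lowered 2.67% of all genes in the microsystem, and raised 8.38% and lowered 1.98% of them in Petri dishes.

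Isozymes that differ between fetal and adult liver moved in both directions within each list. Of 6 adult isozymes tested, 3 rose and 2 fell in microsystem control cells and 3 rose and 1 fell in treated cells. Of 8 fetal isozymes, 3 rose and 4 fell in each. Here too 44.9% of all genes were called in control and 41.4% in treated cells. CYP3A4 was among the adult isozymes that rose in both, although most of its group means lay below the percentile of the filter. A gene could pass that filter on the arrays of its highest group alone, so the place of CYP3A4 in the count may depend on it. Methionine adenosyltransferase rose in both forms, the adult MAT1A by 1.51 ± 0.14 in control and 1.44 ± 0.14 in treated cells (adjusted p = 2.79e-06 and 4.43e-06), and the fetal MAT2A by 0.89 ± 0.14 and 1.15 ± 0.14 (adjusted p = 0.000168 and 2.32e-05). HK2, the hexokinase of fetal and tumour liver, fell by 2.55 ± 0.17 in control cells and fell by 3.15 ± 0.17 in treated cells (adjusted p = 2.26e-07 and 4.47e-08). PYGB, the brain and fetal form of glycogen phosphorylase, rose by 0.74 ± 0.10 and 0.82 ± 0.10 (adjusted p = 4.18e-05 and 2e-05).

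**Figure D4:**
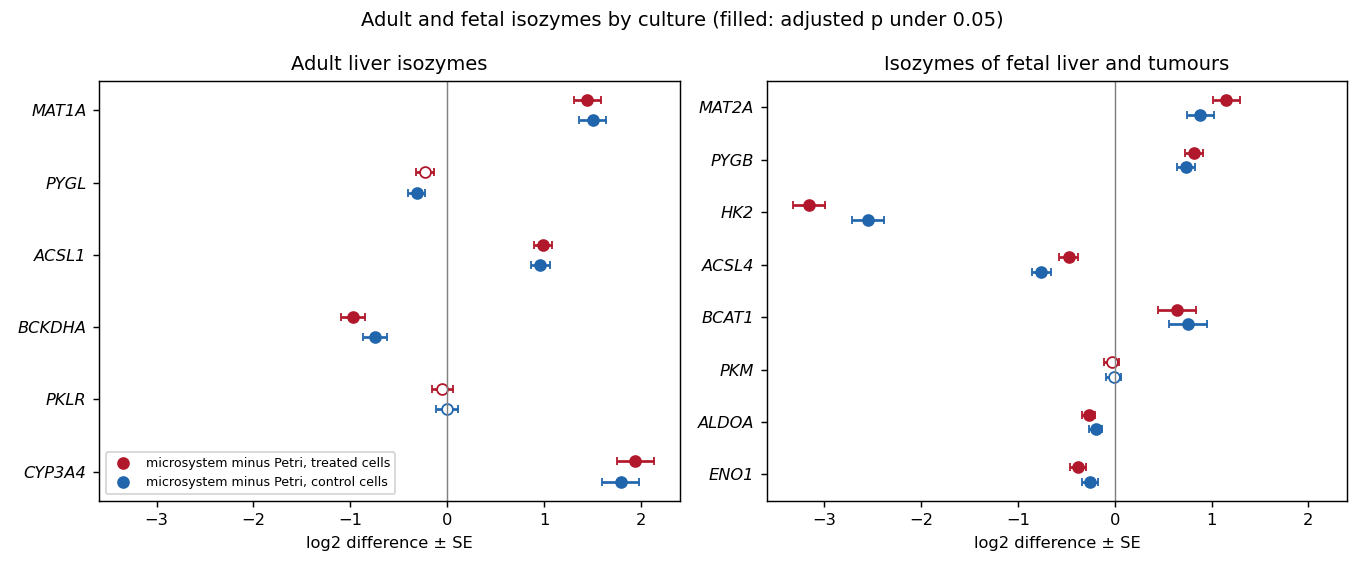
Log2 differences ± SE, microsystem minus Petri (horizontal axis), of adult isozymes (left) and isozymes of fetal liver and tumours (right), in treated cells (red) and control cells (blue), filled where the adjusted p was under 0.05. MAT1A and MAT2A both lie to the right of 0, and HK2 lies farthest to the left.

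As a description over the 12 arrays, which share 4 group means, the genes most like each member were found by Pearson's r among all genes tested. The nearest to AFP were TRIM71, MBL2 and APOB (r = 0.965, 0.964 and 0.96), and after group means were removed r was still 0.962, 0.922 and 0.953. The nearest to ALB were PCNX3, H2BC8 and C2CD2 (0.981, 0.98 and 0.978), with H2BC8 uncertain as a histone gene of near-identical copies. The nearest to DLK1 were SCARB1, HDAC11 and GSE1 (0.994, 0.989 and 0.988), and to GPC3 the ribosomal genes RPL24 and RPS7 and POLR1H (0.971, 0.966 and 0.964). PRRG4, PAQR8 and LPIN1 came nearest to TTR (0.906, 0.903 and 0.899), CTSH, ATAD2 and DPF2 to PEG10 (0.968, 0.956 and 0.955), and NEUROG1, COLEC12 and DLL4 to EPCAM (0.909, 0.883 and 0.882). With group means removed, r in the same order was 0.954, 0.941 and 0.891 for ALB and 0.885, 0.726 and 0.754 for DLK1. It was 0.916, 0.915 and 0.858 for GPC3 and 0.899, 0.972 and 0.893 for TTR. For PEG10 it was 0.887, 0.914 and 0.873, and for EPCAM 0.819, 0.748 and 0.776. Between members, AFP and ALB had r = 0.912 over the arrays and 0.759 within groups. DLK1 and TTR had r = 0.459 over the arrays and 0.875 within groups, and AFP and TTR 0.039 and 0.914, so both pairs were more alike in their deviations from group means than over the arrays as a whole.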

How the data were processed

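The authors deposited log2 intensities for 32321 probe sets of 12 arrays, which the submitters' processing notes trace to RMA in Expression Console, a program of Affymetrix. Versions and genome build: not given in the sources used here. Array intensities were used as deposited, without new normalization. Gene symbols came from the array's annotation, updated through Entrez identifiers to RefSeq symbols. Of the probe sets, 19158 had 1 symbol, 1388 several and 11775 none listed here. A gene was represented by its probe set of highest mean and tested if its value passed the 40th percentile of the array on 3 arrays or more, which removed 5205 genes. One coefficient per group was fitted in limma 3.58.1 (R 4.3.3) with 8 residual and 5.35 prior degrees of freedom. SE and 95% intervals are those of the moderated fit. Exact permutation tests were run within strata for 7 genes and 2 averaged effects. An exact permutation of 3 arrays against 3 cannot go below p = 0.1, so none was run there.

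The members, lists and tests were chosen with earlier results of these data known. Named list genes were up to 4 called genes of largest difference per list and comparison, and called isozymes. To check pairing, deviations from group means were correlated between same-numbered arrays. In Petri dishes treated and control arrays gave 0.477, 0.189 and 0.307, and 6 of 6 arrays correlated best with their own number. The main fit and the permutations did not use this possible pairing. For the drug in Petri dishes, no member's call changed with either replicate block. Calls that the blocks changed in other comparisons are given below. For the drug in the microsystem r was 0.107, 0.0708 and 0.604, and for culture it was 0.184, -0.0338 and 0.13 in control and 0.141, -0.138 and 0.13 in treated cells. The procedure was tested on simulated data. Python 3.11.15 and matplotlib 3.10.9 drew the figures.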

Additional observations from a re-analysis of the deposited data

How the results depend on the processing

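The alternatives were blocks by replicate number, fits on the compared groups alone, 2 further normalizations, other filters and probe set rules, a variance trend, array weights, and fits without single arrays or without both microsystem arrays numbered 3. The culture effects averaged over treatment kept their calls for ALB, AFP, GPC3, DLK1 and PEG10 under all 22 that could be run. Genes called for the drug in Petri dishes numbered 1367, against 2180 with the replicate block within each culture, 3602 with array weights and 701 to 1520 without single arrays. In the microsystem they numbered 1196, against 2109 with that block, 446 with the compared arrays alone, 677 without both arrays numbered 3 and 460 to 1440 without single arrays. Genes whose drug effects differed numbered 4, against 18 with the replicate block, 24 with the block within each culture, 7 after quantile normalization, 10 with the trend, 54 with weights, 11 without both arrays numbered 3 and 1 to 13 without single arrays. In the microsystem the numbers are not shown to pair the arrays (2 of 6 correlate best with their own number), and with the replicate block TTR and DLK1 passed for the drug there (adjusted p = 0.00987 and 0.0387, limma), TTR for culture in control cells (0.0236) and AFP for culture in treated cells (0.0317). With the block within each culture TTR and DLK1 had adjusted p of 0.001 and 0.00383. Values that turned sign were all uncalled. For the drug in Petri dishes AFP gave 0.011 after quantile normalization, 0.039 with equal medians and 0.013 with weights, and ALB -0.009 with weights. Without single arrays AFP ranged from -0.106 to 0.136, ALB from -0.027 to 0.044 and TTR from -0.057 to 0.236. For the difference of drug effects EPCAM gave 0.028 (quantile) and 0.033 (weights) and PEG10 -0.022 (weights), and without single arrays EPCAM ranged from -0.065 to 0.053, GPC3 from -0.075 to 0.045 and PEG10 from -0.05 to 0.111. The drug difference of ALB averaged over cultures was 0.003 (quantile) and 0.019 (medians), and -0.043 to 0.004 without single arrays. EPCAM by culture in treated cells ranged from -0.116 to 0.001 without single arrays. The averaged culture difference of TTR was 0.037 with weights and 0.028 without both arrays numbered 3. The cause of these changes was not tested. With 3 arrays a group, differences near the spread of replicates were not resolved.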
